A study of Mus musculus with 6 samples.

Results

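The 36 genes described here encode the contractile machinery of skeletal muscle, with the proteins that switch it on and fuel it. They were chosen by gene symbol, as known parts of muscle, with earlier results of these data known. All 36 were found among the 34590 gene symbols counted. The RNA came from skin of C57BL/6 mice that had received imiquimod, a Toll-like receptor 7 agonist, on the skin surface for 2 days. The knockout group was 3 Tnip1-/- mice and the wild type group 3 Tnip1+/+ mice, sampled as skin biopsies of 10 by 5 mm. Tnip1 encodes a ubiquitin-binding protein that works with A20 to hold back NF-kB. Both groups were treated, and untreated skin was not analysed here. The sources used here do not give the kind of Tnip1 allele, the age of the mice or the body site of the biopsies. Genotype was compared to ask how much muscle RNA the biopsies held and whether fast and slow fibre transcripts moved together.

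Skeletal muscle shortens when myosin in thick filaments pulls on actin in thin filaments, within sarcomeres that are bounded by Z discs and spanned by titin. A nerve impulse opens calcium channels, calcium binds troponin C on the thin filament, and the calcium pump ends the contraction. Fast and slow fibres use different genes for the same part: fast fibres carry Myh4, Myh1 or Myh2 myosin with fast troponins, and slow fibres carry Myh7 myosin with slow troponins. Mouse skin has a thin sheet of striated muscle beneath the fat, the panniculus carnosus, which is made mostly of fast fibres, so a full-depth biopsy can include it.

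Muscle genes share short promoter motifs. The E-box is bound by factors of the MyoD family, the CArG box by serum response factor and the MEF2 site by MEF2 factors. Promoters of 5 of the 36 genes are shown because they stand for the main comparisons: the skeletal actin Acta1, the creatine kinase Ckm, the fast myosin Myh4, and the fast and slow forms of troponin C. Each run is the 250 bases before the transcript's start, 5′ to 3′ on the gene's own strand, from RefSeq on GRCm38.p6, with E-boxes, CArG boxes and MEF2 sites in capitals.
Acta1 (GRCm38.p6 chr8:123894776-123895025, minus strand): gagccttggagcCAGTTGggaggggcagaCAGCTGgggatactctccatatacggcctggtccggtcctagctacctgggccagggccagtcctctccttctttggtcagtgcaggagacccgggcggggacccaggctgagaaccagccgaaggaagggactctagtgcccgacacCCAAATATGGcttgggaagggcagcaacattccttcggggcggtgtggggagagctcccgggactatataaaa
Ckm (GRCm38.p6 chr7:19410844-19411093, plus strand): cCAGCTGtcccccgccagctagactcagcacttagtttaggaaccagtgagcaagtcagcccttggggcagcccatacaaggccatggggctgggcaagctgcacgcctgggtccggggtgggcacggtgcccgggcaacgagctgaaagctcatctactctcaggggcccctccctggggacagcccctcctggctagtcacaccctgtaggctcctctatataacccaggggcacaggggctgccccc
Myh4 (GRCm38.p6 chr11:67237562-67237811, plus strand): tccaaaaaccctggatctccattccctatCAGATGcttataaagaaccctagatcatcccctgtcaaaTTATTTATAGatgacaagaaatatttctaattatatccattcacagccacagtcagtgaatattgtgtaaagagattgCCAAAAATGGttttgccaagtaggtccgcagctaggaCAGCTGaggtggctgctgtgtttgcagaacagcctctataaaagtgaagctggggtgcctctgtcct
Tnnc2 (GRCm38.p6 chr2:164779735-164779984, minus strand): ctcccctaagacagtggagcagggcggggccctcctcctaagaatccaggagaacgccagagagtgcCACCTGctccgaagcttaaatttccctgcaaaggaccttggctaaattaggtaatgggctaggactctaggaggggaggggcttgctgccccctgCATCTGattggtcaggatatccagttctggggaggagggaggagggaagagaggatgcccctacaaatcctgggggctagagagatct
Tnnc1 (GRCm38.p6 chr14:31208062-31208311, plus strand): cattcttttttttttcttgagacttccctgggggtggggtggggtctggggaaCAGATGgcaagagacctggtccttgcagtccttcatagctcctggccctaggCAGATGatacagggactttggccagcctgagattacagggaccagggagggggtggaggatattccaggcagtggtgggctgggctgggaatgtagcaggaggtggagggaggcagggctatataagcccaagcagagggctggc

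In these 250 bases Acta1 held 2 E-boxes and 1 CArG box, Myh4 held 2 E-boxes, 1 CArG box and 1 MEF2 site, and Ckm held 1 E-box. The fast Tnnc2 and the slow Tnnc1 each held 2 E-boxes and no match to the other motifs. RefSeq windows were used for 28 of the 36 genes, each running from 250 bases before the start to 50 bases after it. Windows on chromosome 18, where Myot lies, were left out for the 36 genes but not for all genes. An E-box, spelled CANNTG and read on both strands, was in 89.3% of the 28 genes and in 75.0% of all 27025 genes with a window. The CArG box was in 7.14% of the 28 genes and in 1.81% of all genes, and the MEF2 site in 17.9% of the 28 genes and in 3.70% of all genes. The TATA box, spelled TATAAA, was in 25.0% of the 28 genes and in 15.7% of all genes, and its matches can overlap those of the MEF2 site, as 1 did in Myh4. These matches describe letters in a window and are not shown to be bound.

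The libraries held 19529970 to 25864730 gene counts in knockout skin and 24701074 to 31005554 in wild type skin. Tnip1 stood at 2.03, 1.57 and 1.83 CPM in knockout skin, against 28.1, 25.1 and 26.0 CPM in wild type skin, so the knockout level averaged 6.84% of that in wild type skin (log2 fold change -3.87, SE 0.16, adjusted p = 5.87e-05, edgeR). Of 16691 tested genes, 22.7% were called lower and 22.3% higher in knockout skin at an adjusted p under 0.05 in edgeR's quasi-likelihood test. Every count of called genes below, of muscle or of another list, is to be read against those shares. With library totals in place of TMM scaling, 34.1% of all calls were higher instead of 49.6%, and the median log2 fold change of all genes was -0.19 instead of -0.04, while that of the 36 muscle genes was -1.59 instead of -1.44. A pair of libraries stood apart in ways that touch the muscle genes. Knockout replicate 2 had the lowest adipocyte list sum, 0.199% of gene counts against 0.340 and 0.346% in knockout replicates 1 and 3, and its list members were uneven. It held 14 counts of Adipoq, which encodes adiponectin, against 2684 and 1752 in those libraries, but 32669 counts of the lipid enzyme Scd1, against 21196 and 14118. Wild type replicate 2 had the most muscle RNA of all 6 libraries. The library names carry 1 prefix for all knockout and another for all wild type libraries, with no meaning given, so a batch that follows the prefix and the genotype cannot be told apart.

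Muscle transcripts took up less of every knockout library than of any wild type library. The 36 genes together held 1.15, 0.902 and 1.16% of gene counts in knockout replicates 1, 2 and 3, against 2.57, 4.08 and 2.60% in wild type replicates 1, 2 and 3. The groups did not overlap, and the means were 1.07% ± 0.148 in knockout skin and 3.08% ± 0.860 in wild type skin (SD, n = 3 each). Knockout skin thus averaged 34.8% of the wild type share. Without Acta1 the log2 difference between the groups was -1.51, against -1.5 with it, and leaving out each library in turn gave -1.61 to -1.28. A share of gene counts also depends on how much RNA the other cells of the biopsy gave. In whole biopsies, fewer muscle cells, less muscle RNA per cell and more RNA from other cells cannot be told apart.

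By gene, 30 of the 36 were called lower in knockout skin, 0 were called higher, and 6 were not called, where 22.7% of all tested genes were called lower, 22.3% higher and 45.1% in either direction. No muscle gene was higher at an unadjusted p under 0.05 in edgeR, DESeq2 or limma voom either. The called genes had log2 fold changes of -2.97 to -1.03 with SEs of 0.20 to 0.48, and their knockout means were 12.8% to 49.1% of the wild type means. The median over the 36 genes was -1.44, against -0.04 over all tested genes. Every knockout library was below every wild type library in 30 of the 36 genes and in 30.5% of all tested genes. Without knockout replicate 2 or 3, and likewise without wild type replicate 2, 27 of the 36 genes were called lower. Without wild type replicate 2 the median was -1.11. Differences in fold change between genes were not tested. Each gene that was called kept a lower value in knockout skin whichever library was left out.

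**Figure D1:**
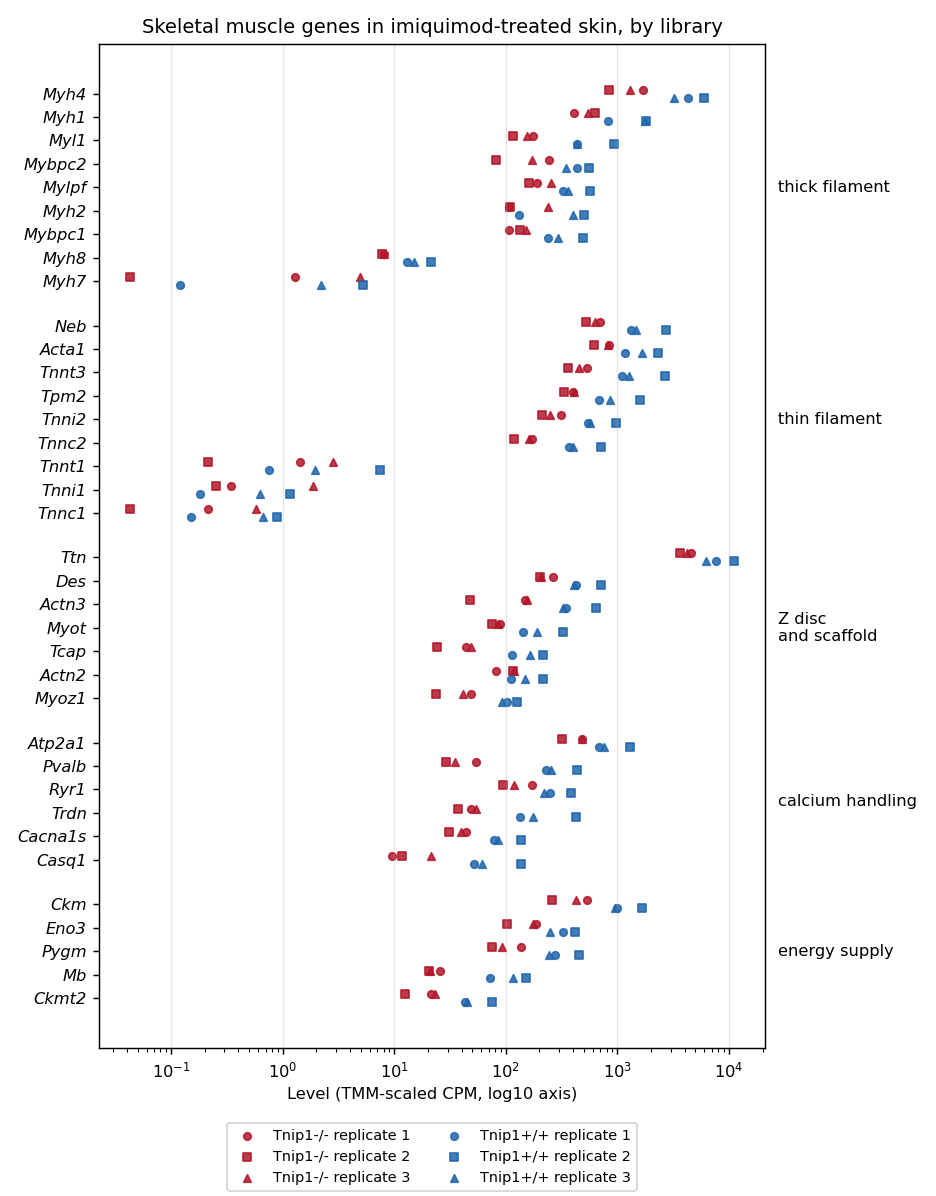
Level of each of the 36 muscle genes in every library, as TMM-scaled CPM on a log10 axis, with Tnip1-/- libraries in red above Tnip1+/+ libraries in blue and 1 symbol shape per replicate number. Knockout points lie left of wild type points in 30 genes, and the slow genes Myh7, Tnnc1, Tnni1 and Tnnt1 sit lowest, with the groups mixed.

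Levels between genes were compared per kilobase of exon, with exon lengths from GENCODE on the later build GRCm38. Acta1, the actin of skeletal muscle thin filaments, was the highest in both groups, with 495 ± 77.8 CPM per kb in knockout skin and 1110.3 ± 375 CPM per kb in wild type skin (SD, n = 3 each). Tnnt3, the fast form of troponin T, had 285 ± 54.9 CPM per kb in knockout skin and 1067 ± 554 CPM per kb in wild type skin, and Myh4 had 214 ± 72.1 CPM per kb in knockout skin and 749.7 ± 236 CPM per kb in wild type skin. These 3 genes held ranks 1, 2 and 3 in both groups, but the spread of the wild type libraries was wider than the distance between Acta1 and Tnnt3. The slow genes Tnnt1, Tnnc1, Myh7 and Tnni1 held ranks 33 to 36 in knockout skin, with means under 1 CPM per kb, and the developmental myosin Myh8 stood just above them at 0.679 CPM per kb. Mybpc1, also counted as a slow-fibre gene, was at rank 21 in both groups, above the fast genes Myh2, Myoz1 and Casq1. Pvalb, the calcium buffer of fast fibres, was at rank 17 in knockout skin and rank 9 in wild type skin.

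Of the 9 genes of the thick filament, 7 were called lower and 2 were not called (median log2 fold change -1.39). Myh4, the myosin heavy chain of the fastest (IIb) fibres, stood at 1707, 840.2 and 1309.5 CPM in knockout skin, against 4314, 6017 and 3199.5 CPM in wild type skin. Every knockout library was below the lowest wild type library, and the knockout libraries averaged 28.5% of the wild type level (log2 fold change -1.81, SE 0.34, adjusted p = 0.0062, edgeR). Myh1, the heavy chain of IIx fibres, stood at 408, 625 and 549 CPM in knockout skin, against 821, 1809 and 1775 CPM in wild type skin. It fell by 1.48 on the log2 scale (SE 0.33), and here knockout replicate 2 was the highest of its group, whereas it was the lowest for Myh4. Myh2, the heavy chain of the fast oxidative IIa fibres, stood at 106, 109 and 236 CPM in knockout skin, against 132, 504 and 397 CPM in wild type skin. Its groups overlapped, since wild type replicate 1 was below knockout replicate 3, and it was not called (log2 fold change -1.20, SE 0.52, adjusted p = 0.0993). DESeq2 called Myh2 lower, as did edgeR without wild type replicate 1.

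The light chains stabilise the lever arm of the myosin head. Myl1, the fast essential light chain, stood at 176, 117 and 155 CPM in knockout skin, against 430.4, 923 and 432 CPM in wild type skin, and it fell by 2.0 on the log2 scale (SE 0.34). Mylpf, the fast regulatory light chain, stood at 189, 160.2 and 252 CPM in knockout skin, against 322, 566 and 361 CPM in wild type skin. It fell by 1.05 on the log2 scale (SE 0.26), and both encode parts of the same fast myosin. Myosin-binding protein C sits along the thick filament in a fast form, Mybpc2, and a form first described in slow fibres, Mybpc1. Mybpc2 stood at 244, 81.8 and 170.0 CPM in knockout skin, against 438, 557 and 347 CPM in wild type skin (log2 fold change -1.44), and knockout replicate 2 was well below the other libraries. Mybpc1 stood at 107, 133 and 150.3 CPM in knockout skin, against 238, 492 and 294 CPM in wild type skin (log2 fold change -1.39), and its knockout libraries lay close together. Myh8, the perinatal myosin, was low in both groups, with 8.14, 7.75 and 8.10 CPM in knockout skin, against 12.9, 21.1 and 15.1 CPM in wild type skin, and was called lower (-1.03). The Mylpf call was lost without knockout replicate 1 or 2, and the Mybpc2 call without knockout replicate 3 or wild type replicate 2.

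Among the 9 genes of the thin filament, 6 were called lower, and the 3 that were not called were the slow troponins (median -1.44). Acta1 stood at 836, 622 and 822 CPM in knockout skin, against 1160.2, 2307 and 1649 CPM in wild type skin, with a knockout average at 44.6% of the wild type level (log2 fold change -1.17, SE 0.27, adjusted p = 0.0132, edgeR). The 3 knockout libraries lay close together and below every wild type library. The fast troponin complex consists of a calcium sensor, an inhibitor and a subunit that holds tropomyosin, and all 3 were lower. Tnnc2, the sensor, stood at 169.7, 117 and 162 CPM in knockout skin, against 367, 715 and 402 CPM in wild type skin (log2 fold change -1.72, SE 0.29). Tnni2, the inhibitor, stood at 314, 212 and 247 CPM in knockout skin, against 549, 978 and 565 CPM in wild type skin (log2 fold change -1.44, SE 0.27). Tnnt3, the tropomyosin-binding subunit, stood at 537, 363 and 452 CPM in knockout skin, against 1093, 2696 and 1278 CPM in wild type skin (log2 fold change -1.91, SE 0.37). In each of them wild type replicate 2 was the highest of all libraries and knockout replicate 2 the lowest. Neb, which encodes the giant protein nebulin along the actin filament, fell by 1.56 (SE 0.30), and the tropomyosin Tpm2 by 1.46 (SE 0.31). Tpm2 is also expressed in smooth muscle.

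Of 7 genes of the Z disc and the sarcomere scaffold, 6 were called lower (median -1.41). Tcap, which encodes the telethonin cap on titin at the Z disc, stood at 43.8, 24.0 and 49.1 CPM in knockout skin, against 114, 215 and 165 CPM in wild type skin (log2 fold change -2.08, SE 0.33, adjusted p = 0.00347, edgeR). Myoz1, a calcineurin-binding protein of fast-fibre Z discs, fell by 1.5 on the log2 scale (SE 0.27), the actin-bundling protein Myot by 1.41 (SE 0.29) and the intermediate filament Des by 1.20 (SE 0.25). Ttn, the longest gene product of the 36, stood at 4568, 3612 and 4168 CPM in knockout skin, against 7664, 11195 and 6277 CPM in wild type skin. It was lower by 1.03 (SE 0.27), and the call was lost without knockout replicate 2 or 3.

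The α-actinins cross-link actin at the Z disc, and the fast and the general form differed in value. Actn3, the form of fast fibres, stood at 149.7, 47.9 and 154 CPM in knockout skin, against 348, 641 and 326 CPM in wild type skin (log2 fold change -1.90, SE 0.48). Actn2, the form of all fibres and of the heart, stood at 82.1, 115 and 119 CPM in knockout skin, against 110.1, 216 and 148 CPM in wild type skin. The Actn2 groups overlapped, since knockout replicates 2 and 3 were above wild type replicate 1, and it was not called (log2 fold change -0.58, SE 0.26, adjusted p = 0.107). The ratio of Actn3 to Actn2 counts was 1.82, 0.418 and 1.29 in knockout skin, against 3.16, 2.97 and 2.21 in wild type skin. Every knockout ratio was lower, and that of knockout replicate 2 was the lowest. The Actn3 call was lost without wild type replicate 2, at a log2 fold change of -1.52, and Actn2 was called without wild type replicate 1, at -0.77.

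All 6 genes of calcium handling were called lower, with the largest median fall of the role groups (-1.89). Pvalb encodes parvalbumin, which soaks up calcium and speeds relaxation in fast fibres, and it stood at 54.0, 29.3 and 34.9 CPM in knockout skin, against 230.4, 437 and 256 CPM in wild type skin. Knockout skin averaged 12.8% of the wild type level, the lowest of the 36 genes (log2 fold change -2.97, SE 0.33, adjusted p = 0.00124, edgeR). Casq1, the calcium store protein of the sarcoplasmic reticulum in fast fibres, stood at 9.44, 11.8 and 21.2 CPM in knockout skin, against 51.9, 137 and 61.6 CPM in wild type skin (log2 fold change -2.57, SE 0.46, adjusted p = 0.00534). Trdn, or triadin, ties that store to the release channel, and it stood at 48.6, 36.9 and 54.2 CPM in knockout skin, against 133, 426 and 176 CPM in wild type skin (log2 fold change -2.40, SE 0.44, adjusted p = 0.00572). In all 3 genes the highest knockout library was far below the lowest wild type library.

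The fold changes of the channels and the pump were nearer 0. Cacna1s, the voltage sensor of the transverse tubule, fell by 1.38 (SE 0.24). Ryr1, the release channel that it opens, fell by 1.14 (SE 0.28). Atp2a1, the fast-fibre calcium pump that returns calcium to the store, stood at 478, 317 and 478 CPM in knockout skin, against 687, 1304 and 761 CPM in wild type skin, and it fell by 1.11 (SE 0.29). The groups did not overlap for these genes. The Ryr1 call was lost without knockout replicate 3 and the Atp2a1 call without knockout replicate 2.

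All 5 genes of energy supply were called lower (median -1.55). Mb, or myoglobin, which stores oxygen, stood at 25.7, 20.2 and 20.7 CPM in knockout skin, against 72.2, 151 and 115 CPM in wild type skin (log2 fold change -2.34, SE 0.27, adjusted p = 0.00136, edgeR). Its knockout libraries lay between 20.2 and 25.7 CPM, all far below the wild type libraries. Ckm, the cytosolic creatine kinase that buffers ATP, stood at 535, 261 and 429 CPM in knockout skin, against 986, 1661 and 946 CPM in wild type skin (log2 fold change -1.55, SE 0.33, adjusted p = 0.00948). Ckmt2, the mitochondrial partner of Ckm, fell by 1.51 (SE 0.30), and Pygm, which breaks down glycogen, by 1.67 (SE 0.31). Eno3, the muscle enolase of glycolysis, stood at 186, 102 and 175 CPM in knockout skin, against 324, 418 and 249 CPM in wild type skin and fell by 1.10 (SE 0.28), a call that was lost without wild type replicate 2. Oxygen storage, phosphocreatine and glycogen use were thus all represented among the lower genes.

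**Figure D2:**
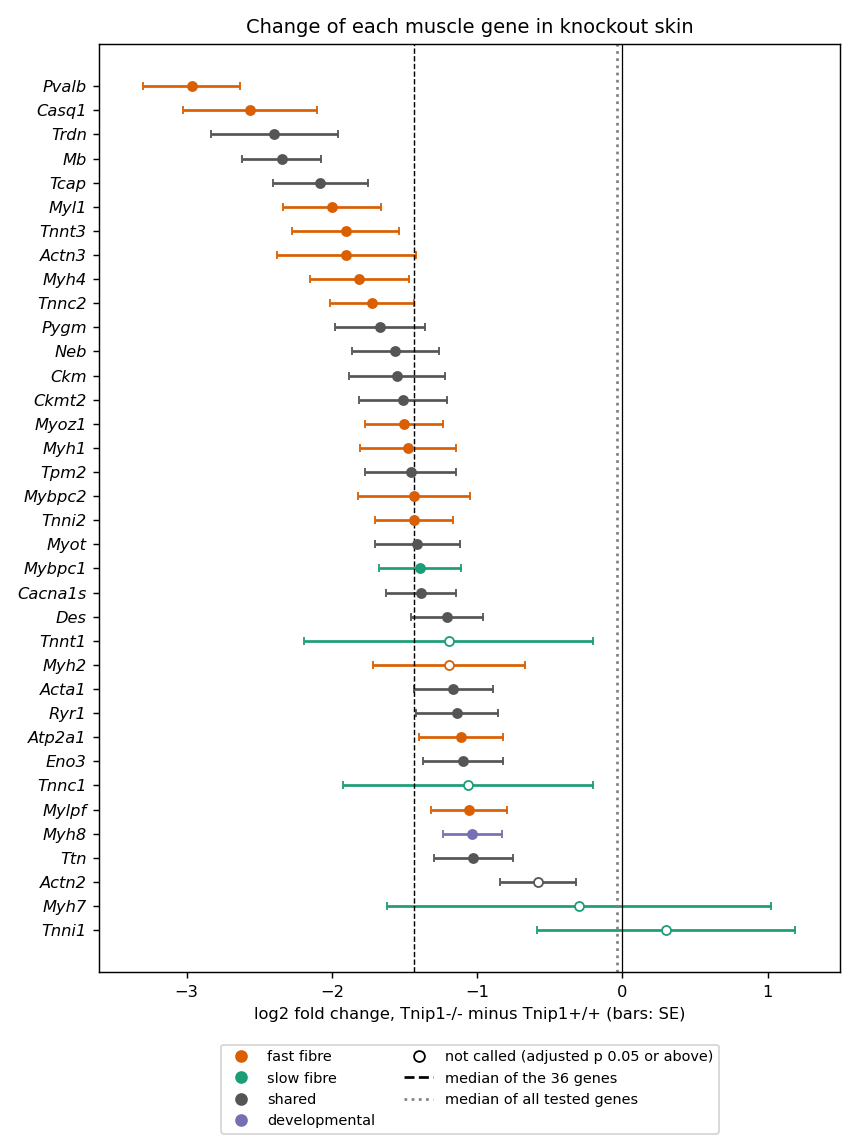
Log2 fold change (Tnip1-/- minus Tnip1+/+) of each of the 36 muscle genes, with bars of 1 SE, coloured by fibre class, filled where the adjusted p was under 0.05. Filled points run from -2.97 for Pvalb to -1.03 for Ttn, left of the median of all tested genes at -0.04 (dotted), and the slow genes Myh7 and Tnni1 lie near 0 with wide bars.

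By fibre class, 13 of 14 fast-fibre genes were called lower (median -1.61), 15 of 16 genes shared by both fibre types (median -1.44) and 1 of 5 slow-fibre genes (median -1.06). The fast gene that was not called was Myh2 and the shared one Actn2. The slow gene that was called was Mybpc1, which had 2491 to 14468 counts a library, while the other 4 slow genes had 1 to 218. The difference between the fast and slow calls was not tested. The 4 low slow genes had SEs of 0.86 to 1.32 on the log2 scale, so a fall as large as the median of the fast genes was not detectable in them.

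The 4 low slow genes were high and low in the same libraries, and their groups overlapped. Myh7, the slow myosin heavy chain, had 30, 1 and 94 counts in knockout skin, against 4, 155 and 59 counts in wild type skin. Tnnt1, the slow troponin T, had 33, 5 and 54 counts in knockout skin, against 25, 218 and 52 counts in wild type skin. Both had the lowest counts of their groups in knockout replicate 2 and wild type replicate 1. Tnni1, the slow troponin I, had 8, 6 and 36 counts in knockout skin, against 6, 34 and 17 counts in wild type skin. Tnnc1, the slow troponin C, had 5, 1 and 11 counts in knockout skin, against 5, 26 and 18 counts in wild type skin. Knockout replicate 3 and wild type replicate 2 were the highest of their groups in all 4 genes. The log2 fold changes were -0.30 (SE 1.32, adjusted p = 0.867) for Myh7, -1.20 (SE 0.99, adjusted p = 0.35) for Tnnt1, 0.30 (SE 0.89, adjusted p = 0.797) for Tnni1 and -1.06 (SE 0.86, adjusted p = 0.338) for Tnnc1 in edgeR. Without wild type replicate 2, the values of Myh7 and Tnnt1 were 0.86 and 0.14, and without knockout replicate 3 that of Tnni1 was -1.09.

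Among the adult myosin heavy chains, Myh4 held most of the counts in every library. Its share of Myh1, Myh2, Myh4 and Myh7 counts was 76.8, 53.4 and 62.4% in knockout skin, against 81.9, 72.2 and 59.5% in wild type skin. The share of Myh1 was 18.4, 39.7 and 26.1% in knockout skin, against 15.6, 21.7 and 33.0% in wild type skin. That of Myh2 was 4.76, 6.90 and 11.3% in knockout skin, against 2.51, 6.04 and 7.38% in wild type skin. The groups overlapped in all of these shares, and each group's own range was wider than the difference between the group means. Myh7 held 0.0582, 0.00269 and 0.234% in knockout skin, against 0.00228, 0.0632 and 0.0406% in wild type skin, and its 95% exact binomial interval was 0.189% to 0.286% in knockout replicate 3 and 0.0536% to 0.0740% in wild type replicate 2, which covers counting error only. Slow fibre myosin was thus a small part of the myosin in all 6 biopsies. Of the 100-base windows of Myh1 transcripts, 7.21% were identical to a stretch of Myh2 and 2.11% to Myh4, so a small share of reads could be split or dropped between these genes, whereas Myh7 shared none.

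The slow troponins held 0.194, 0.0734 and 0.609% of the summed fast and slow troponin counts in knockout skin, against 0.0537, 0.215 and 0.143% in wild type skin. The groups overlapped, since knockout replicate 2 was below wild type replicates 2 and 3 and knockout replicate 3 was above all others. Summed over all members of each class, fast counts were 41.5, 22.9 and 26.6 times slow counts in knockout skin, against 41.3, 34.4 and 34.2 times in wild type skin. Mybpc1 made up nearly all of the slow sum in each library, so this ratio says little of the other slow genes. Without Mybpc1 the slow sum was 0.0713, 0.0180 and 0.239% of fast counts in knockout skin, against 0.0121, 0.0845 and 0.0527% in wild type skin. Those groups overlapped. The log2 difference of the fast to slow ratio over all members was -0.31 between the groups. It was -0.56 to -0.14 when each library was left out in turn, and no test was made of it. It was -0.97 from means of log2 CPM, -0.88 from the myosin heavy chains alone and -0.80 from the troponins alone, so its size depended on the summary used. These other summaries were not recomputed with each library left out. They lean on slow genes with very few counts, such as Myh7 with 1 count in knockout replicate 2 and 4 in wild type replicate 1. Neither their size nor their direction is thus shown to be stable.

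**Figure D3:**
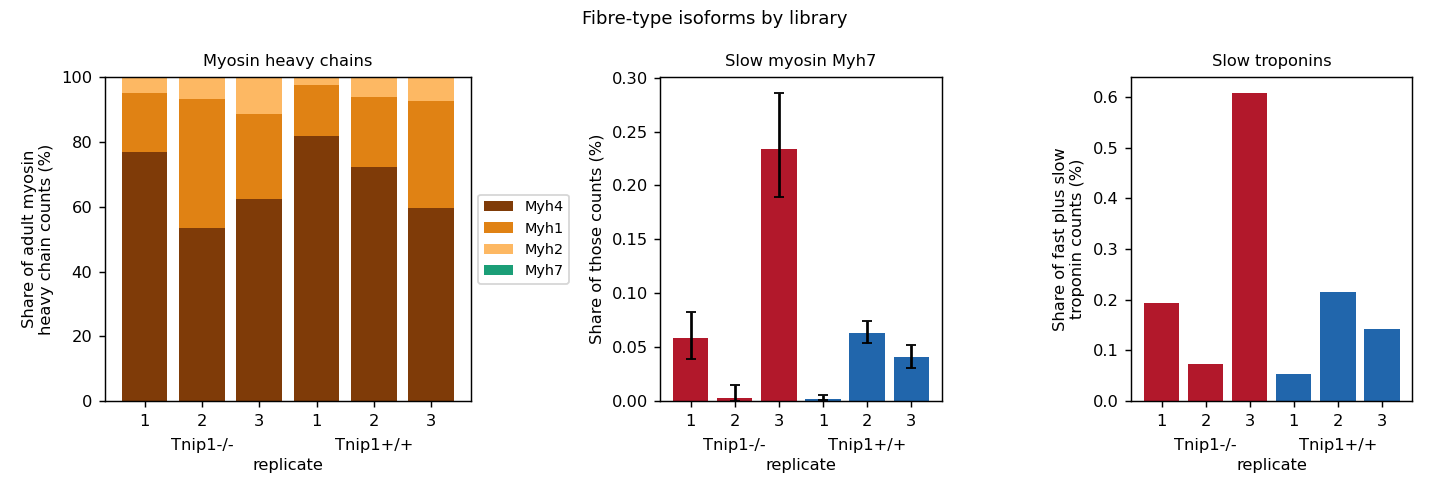
Left, share (%) of Myh4, Myh1, Myh2 and Myh7 in the summed counts of these adult myosin heavy chains; middle, the share of Myh7 alone with 95% exact binomial intervals; right, share (%) of slow troponins in all fast and slow troponin counts, for 3 Tnip1-/- (red) and 3 Tnip1+/+ libraries (blue). Slow forms stay under 1% in every library, and knockout replicate 3 is the highest in both slow panels.

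The make-up of the muscle transcripts was then described relative to the summed counts of the 36 genes, so that a fall shared by all of them cancels. In these shares 10 genes had every knockout library below every wild type library, 4 had every knockout library above, and 22 overlapped. Over all tested genes, scaled in the same way, 2.89% were lower without overlap and 74.7% higher. The muscle sum was lower in knockout skin, so this scaling by itself raises most other genes. Those percentages are thus not a like background for shares within the 36 genes. Pvalb took 0.420, 0.313 and 0.294% of the summed muscle counts in knockout skin, against 0.963, 1.07 and 1.07% in wild type skin. Casq1 took 0.0734, 0.127 and 0.178% in knockout skin, against 0.217, 0.335 and 0.259% in wild type skin. Mb took 0.200, 0.217 and 0.174% in knockout skin, against 0.302, 0.369 and 0.485% in wild type skin. These genes thus held a smaller part of the muscle RNA in every knockout library, as did Trdn, Tcap, Myl1, Actn3, Tnnt3, Myh4 and Tnnc2. In the other direction, Ttn took 35.5, 38.7 and 35.1% in knockout skin, against 32.0, 27.4 and 26.4% in wild type skin, and Actn2 took 0.639, 1.23 and 1.01% in knockout skin, against 0.460, 0.528 and 0.620% in wild type skin. Atp2a1 and Myh8 were the others above without overlap. The nearest libraries of both groups almost met for Actn2, Myh8 and Myh4, so the separation of these genes is weak. Shares of a sum are tied to each other, so a lower share of some genes raises that of the rest, and no test was made of them.

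**Figure D4:**
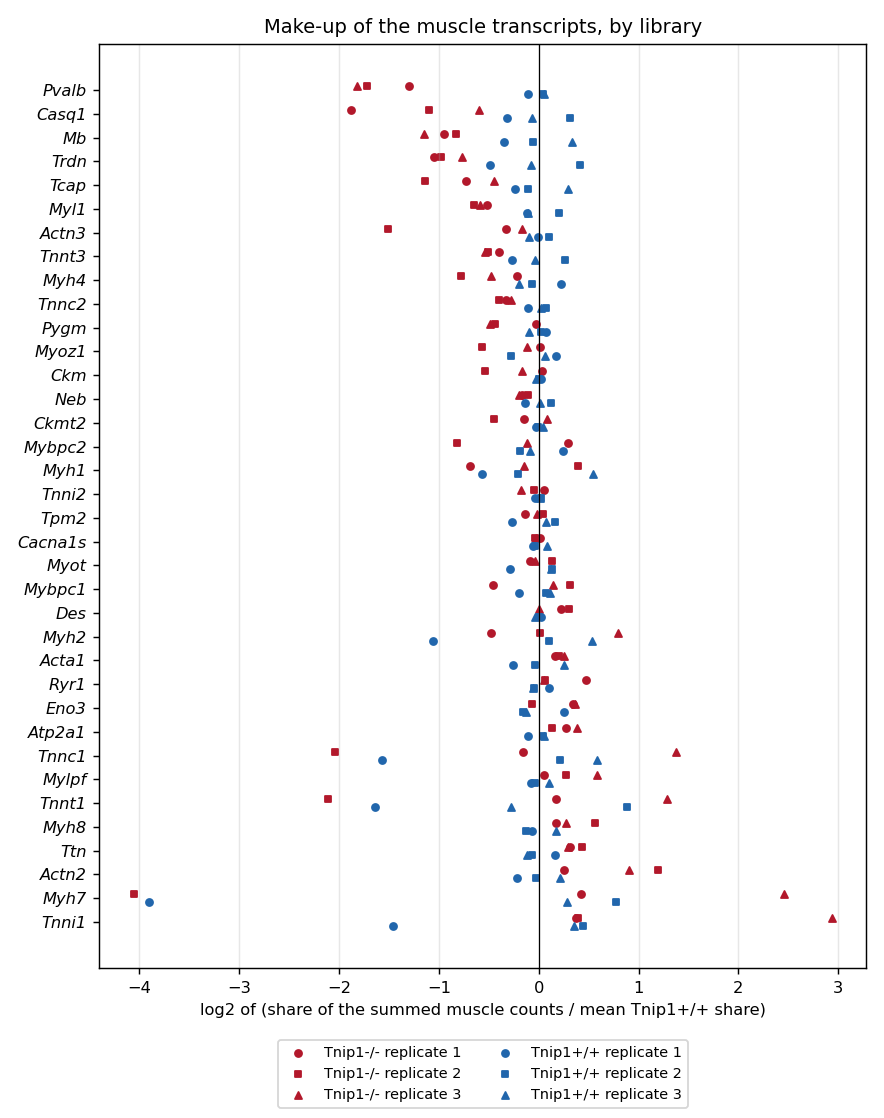
Share of each gene in the summed counts of the 36 muscle genes, as log2 of the share over the mean Tnip1+/+ share, for each library (Tnip1-/- in red above Tnip1+/+ in blue, 1 symbol shape per replicate number). Pvalb, Casq1, Mb and Trdn lie left of 0 in all 3 knockout libraries, Actn2 and Ttn right of it, and the slow genes at the bottom scatter over several log2 units in both groups.

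Muscle genes outside the 36 were examined in lists drawn up from general knowledge, with earlier results of these data known. Each list was taken without the 36 genes. Of 39 other tested sarcomere genes, 20 were called lower and 0 higher (median -0.93). They included Myom1, the M-band protein myomesin, with 3451, 2655 and 2207 counts in knockout skin, against 9555, 13950 and 7118 counts in wild type skin (log2 fold change -1.44, SE 0.25), and the tropomyosin Tpm1 (log2 fold change -1.36, SE 0.27). Of 30 other tested genes of calcium handling and the muscle membrane, 19 were called lower and 1 higher (median -0.98). The higher one was Atp2a2, a calcium pump that slow fibres share with keratinocytes and other cells, with 10057, 8213 and 6104 counts in knockout skin, against 6779, 4868 and 4937 counts in wild type skin (log2 fold change 1.00, SE 0.16). Fxyd1, a regulator of the sodium pump, had the smallest p of this list (log2 fold change -2.08, SE 0.31). Of 24 genes of muscle metabolism, 16 were called lower and 2 higher (median -1.46). Ampd1, the AMP deaminase of muscle, had 161, 112 and 193 counts in knockout skin, against 1281, 1908 and 905 counts in wild type skin (log2 fold change -2.66, SE 0.35). The higher ones were the glycolytic Pgk1 (3.28) and the ATP synthase subunit Atp5g1 (0.69), which are made in most cells.

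Among 17 tested regulators of muscle gene expression and growth, 9 were called lower and 0 higher (median -0.93). Mstn encodes myostatin, a secreted brake on muscle growth made by muscle fibres, and it had 308, 103 and 260 counts in knockout skin, against 2264, 6072 and 2352 counts in wild type skin (log2 fold change -3.54, SE 0.58, adjusted p = 0.00407, edgeR). Its log2 fold change was lower than that of each of the 36 genes. Sox6, which holds down slow genes in fast fibres, fell by 1.21 (SE 0.17), and Mef2a, one of the MEF2 factors, by 0.60 (SE 0.10). Of 11 tested genes of satellite cells and regeneration, 4 were called lower and 1 higher (median -0.63). When each library was left out in turn, 1 or 2 of them were lower except without wild type replicate 2, and 0 were higher except without knockout replicate 2. Pax7, which defines satellite cells, had 3, 6 and 4 counts in knockout skin, against 3, 10 and 3 counts in wild type skin, too few to test. Of 17 tested genes tied to atrophy or loss of nerve supply, 3 were called lower and 3 higher (median -0.19). The ubiquitin ligase Fbxo32, which rises in wasting muscle, was lower, with 1168, 644 and 302 counts in knockout skin, against 2826, 3757 and 2451 counts in wild type skin (log2 fold change -1.70, SE 0.40). The 3 higher genes were Runx1 (log2 fold change 0.72, adjusted p = 0.0146, edgeR) and the metallothioneins Mt1 (1.40) and Mt2 (2.03). The metallothioneins are also made outside muscle.

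Lists of smooth muscle, fat, Schwann cell, fibroblast and endothelial genes had negative medians, and their part in the muscle result was not tested. Among all tested genes 22.7% were called lower and 22.3% higher, and the counts of each list are to be read beside those shares. Of 19 tested smooth muscle genes 14 were lower and 2 higher (median -0.97), and the list summed to 0.179% to 0.203% of gene counts in knockout skin and 0.241% to 0.297% in wild type skin. Myh11, the smooth muscle myosin, had 1913, 1788 and 1688 counts in knockout skin, against 5517, 5236 and 5698 counts in wild type skin (log2 fold change -1.17, SE 0.13). Of 18 adipocyte genes 11 were lower and 0 higher (median -1.73), and the list summed to 0.199% to 0.346% in knockout skin and 0.880% to 1.61% in wild type skin. Wild type replicate 2 was the highest library for fat as it was for muscle. Of 13 genes of Schwann cells, which ensheathe the nerves of the skin, 9 were lower and 0 higher (median -0.95), with sums of 0.0149% to 0.0223% in knockout skin and 0.0339% to 0.0367% in wild type skin. Of 16 fibroblast genes 8 were lower and 0 higher (median -0.92), with sums of 0.750% to 0.774% in knockout skin. The fibroblast sums of wild type replicates 1, 2 and 3 were 2.18, 1.07 and 1.00%, so replicate 1 stood apart from the others. Of 8 endothelial genes 3 were lower and 2 higher (median -0.56), with sums of 0.0192% to 0.0250% in knockout skin and 0.0245% to 0.0387% in wild type skin. The Schwann cell and fibroblast sums did not overlap between the groups, and the endothelial sums did. Without wild type replicate 2, 7 adipocyte genes and 1 endothelial gene were lower, without knockout replicate 2 or 3, 5 fibroblast genes were, and without wild type replicate 1, 2 fibroblast genes were higher. Without knockout replicate 1 or 2 or wild type replicate 1, 1 endothelial gene was lower, and 0 were higher without knockout replicate 2 or 3 and 1 without wild type replicate 1 or 3. The medians of the smooth muscle, Schwann cell, fibroblast and endothelial lists were thus negative, and nearer to 0 than those of the 36 muscle genes and the adipocyte list.

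The sums and medians of the epidermal and infiltrate lists went the other way. Of 18 epidermal genes 9 were higher, 2 lower and 7 not called (median 0.85). The list summed to 5.45% to 6.38% of gene counts in knockout skin and 1.41% to 2.20% in wild type skin. Its smallest p were those of the keratins Krt6a, Krt16 and Krt6b, with log2 fold changes of 6.62, 6.05 and 7.82. Krt15, another keratin, was lower (-3.08). The sum thus does not measure how much epidermis the biopsies held. Of 11 tested myeloid genes 6 were higher and 0 lower (median 0.86), with sums of 0.884% to 1.23% in knockout skin and 0.0909% to 0.133% in wild type skin. Without wild type replicate 2, 10 myeloid genes were higher, and without knockout replicate 1 or 3 or wild type replicate 1 or 3, 1 epidermal gene was lower. With library sizes computed without the muscle and epidermal genes, an alternative added after seeing the data, 30 muscle genes were called lower and 0 higher, the same counts as with all genes. Of 10 tested heart genes 3 were lower and 2 higher (median -0.59), with 1 lower without knockout replicate 2. Defining heart genes were at or near 0, with 0 counts of the atrial peptide Nppa in every library and, for the heart myosin Myh6, 1, 0 and 5 counts in knockout skin, against 0, 9 and 1 counts in wild type skin.

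**Figure D5:**
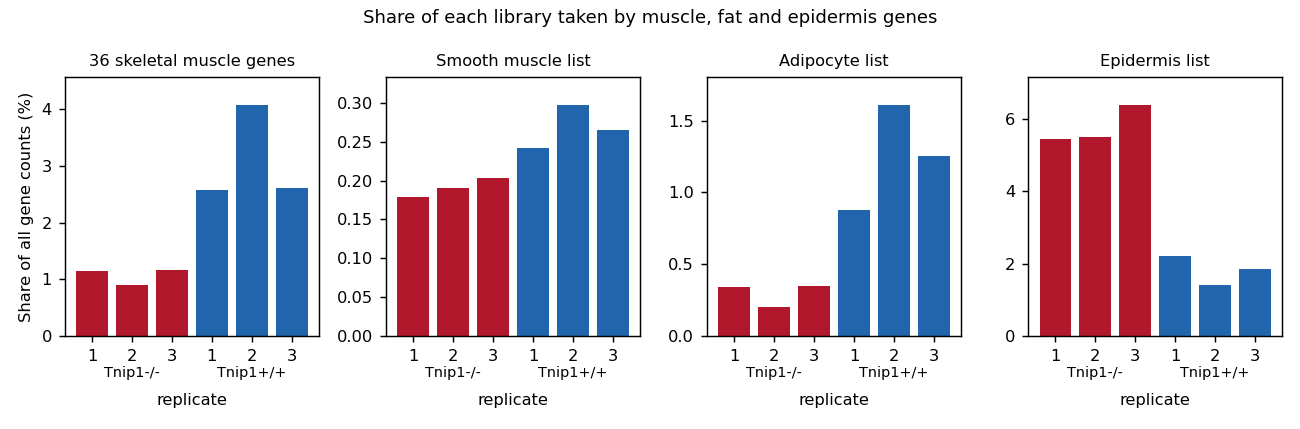
Share (%) of each library's gene counts taken by the 36 skeletal muscle genes, the smooth muscle list, the adipocyte list and the epidermis list, with 3 Tnip1-/- libraries (red) left of 3 Tnip1+/+ libraries (blue). Muscle and fat lists are lower in every knockout library, with wild type replicate 2 highest, and the epidermis list is higher in every knockout library.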

How the data were processed

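Gene counts were measured in total skin RNA of 3 Tnip1-/- and 3 Tnip1+/+ mice. The deposited files held counts, whole numbers per gene symbol, with 5 summary lines that took 26.7% to 28.0% of the knockout files and 27.6% to 30.3% of the wild type files and were left out. TRIzol extraction, removal of ribosomal RNA and stranded paired-end libraries are given per the labels' protocols. Per the submitters' processing notes, HTSeq, CASAVA 1.7, STAR, R 3.2.3, BWA and limma were used, in an order not given, with mm9 as the build. The sources used here give neither the strand option nor the gene annotation, so reads of overlapping or antisense genes could not be told apart.

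The labels gave groups and replicate numbers. The test was edgeR 4.0.16 (R 4.3.3): filterByExpr by group, TMM factors of 0.898 to 1.095, a non-robust quasi-likelihood fit, and Benjamini-Hochberg adjustment over 16691 genes. Calls needed an adjusted p under 0.05 in this edgeR fit. A log2 fold change is positive where knockout skin was higher, and each standard error (SE) is the fold change over the root of its F statistic. CPM is the count scaled to the TMM-adjusted library size. In knockout libraries 3 counts equal 0.127 to 0.157 CPM, and in wild type libraries 0.0900 to 0.111 CPM, which limits detection, and all 36 genes passed the filter. Intervals and this limit cover counting error only. Replicates differed by more than sampling noise (30.8 to 124 chi-square per degree of freedom), so none was treated as a duplicate.

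The 36 genes and the 14 other lists were chosen with earlier results of these data known. All 36 genes may be named, and of the other lists up to 5 genes with the smallest p, plus defining markers near 0. Genes in the last part were chosen after their values were seen. Sums, ratios and shares over several genes were given per library with no test. Alternatives were DESeq2 1.42.0, limma voom 3.58.1, other scalings and filters, robust dispersion, the replicate number as a covariate, and leaving out each library. Library sizes without the epidermal genes were added after seeing the data. Same-numbered libraries did not deviate together (correlations of 0.01, -0.21 and 0.19), so the numbers were not treated as pairs. The procedure was tested on simulated data. Exon lengths and transcript windows came from GENCODE on GRCm38 and promoters from RefSeq on GRCm38.p6, matched by symbol, with no coordinates of the files' build.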

Additional observations from a re-analysis of the deposited data

How the results depend on the processing

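Over 16 alternative settings the muscle genes called lower numbered 27 to 32 of 36 and those called higher 0 in each. DESeq2 called 31 lower, limma voom, library totals and upper-quartile factors 30 each, and leaving out each library 27 to 32. Under the stricter filter 34 of the 36 genes were tested and 30 called. Fast genes called lower numbered 11 to 14, and slow genes 1 in every setting. With the replicate block, which rests on numbers that do not pair the mice, 28 muscle genes, 11 fast genes and 1 slow gene were called lower and 6465 of all genes were called, against 7525 without it. The block ended the calls of Actn3, Atp2a1 and Ttn and called Actn2. Of 574 single-gene values under the alternatives, 551 kept direction and call, 13 lost the call, 4 gained it and 6 changed sign. The sign changes were of low slow genes. Myh7 stood at 0.079 with the replicate block. When each library was left out in turn, Myh7 ranged over -1.90 to 0.86, Tnni1 over -1.09 to 1.01 and Tnnt1 over -2.02 to 0.14, against -0.30, 0.30 and -1.20 with all 6. The cause was not tested. The log2 difference of the fast to slow ratio was -0.31 from summed counts, -0.97 from means of log2 CPM, -0.88 from myosin heavy chains alone and -0.80 from troponins alone, since Mybpc1 no longer dominates the slow side. Only the value from summed counts was recomputed with each library left out, so the direction of the others is not shown to be stable. List counts moved by over 1.5 times elsewhere as follows: adipocyte lower 7 with the block against 11, endothelial lower 1 with the block against 3, endothelial higher 0 with library totals and 1 with upper-quartile factors or the block against 2, satellite lower 1 with the block against 4, satellite higher 0 with totals, upper-quartile factors, voom, either filter or the block against 1, and cardiac higher 1 with the stricter filter against 2. Myh7 counts of 1 to 94 within the knockout group limit what can be said of slow fibres.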

Other observations

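Sight of their values led to the choice of the genes named here. The slow light chains Myl2 and Myl3, which are outside the 36 genes, had their highest and lowest counts in the libraries where Myh7 did. Myl2 had 9, 1 and 41 counts in knockout skin, against 1, 109 and 67 counts in wild type skin, and Myl3 had 2, 0 and 7 counts in knockout skin, against 0, 13 and 8 counts in wild type skin. Some muscle genes that respond to strain or injury were not called, unlike most of the 36 genes. They do not stand for all genes of their kind. Xirp2, a relative of Xirp1, was called lower (log2 fold change -1.97, adjusted p = 0.0102, edgeR). Csrp3, a Z disc protein that rises in stretched muscle, had 1432, 3671 and 823 counts in knockout skin, against 914, 1898 and 2002 counts in wild type skin (log2 fold change 0.65, adjusted p = 0.348, edgeR). Xirp1, an actin-binding protein of injured fibres, had 1305, 2440 and 453 counts in knockout skin, against 636, 1637 and 963 counts in wild type skin (0.73, adjusted p = 0.312, edgeR). Ankrd1, a titin-linked stress protein, had 234, 629 and 100 counts in knockout skin, against 29, 201 and 232 counts in wild type skin (1.38, adjusted p = 0.212, edgeR). For Csrp3, Xirp1 and Ankrd1, knockout replicate 2 was the highest library, although it held the least RNA of the 36 muscle genes. Trim63, a ubiquitin ligase of wasting muscle, had 1964, 480 and 203 counts in knockout skin, against 911, 2074 and 1211 counts in wild type skin and was not called (-0.30, adjusted p = 0.753, edgeR). Myog, a factor of muscle differentiation, had 86, 125 and 60 counts in knockout skin, against 71, 123 and 64 counts in wild type skin and was not called either (0.49, adjusted p = 0.267, edgeR).

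A few genes of the heart list were called higher in knockout skin. Nppb, which encodes a natriuretic peptide, had 558, 390 and 74 counts in knockout skin, against 32, 10 and 1 counts in wild type skin (log2 fold change 4.99, SE 0.93, adjusted p = 0.0061, edgeR). Myl7, an atrial light chain, had 11, 29 and 23 counts in knockout skin, against 0, 0 and 1 counts in wild type skin. The groups did not overlap in either gene, and these counts do not say which cells made them.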
